A study of Mus musculus with 18 samples.

Results

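The levels of 9 nuclear receptor coregulator genes were followed in tamoxifen-treated and oil-treated blood-forming cells of the mouse. They were the coactivator genes Ncoa1, Ncoa2, Ncoa3, Med1, Ep300 and Crebbp, the corepressor genes Ncor1 and Nrip1, and Kdm1a, a histone demethylase gene. They were chosen by symbol, and all 9 were found, with 1 entry each among the 14419 genes of the expression table. The groups were MPPs (multipotent progenitors) after 1 week of tamoxifen, and ST-HSCs and LT-HSCs (short-term and long-term haematopoietic stem cells, here ST cells and LT cells) after 2 weeks of tamoxifen. Each was set against cells of the same population from mice given corn oil for the same time. All mice were adult C57BL/6 males, and the cells were sorted from bone marrow. Each of the 6 groups held 3 libraries, called biological replicates in the series' design text. The sources used here do not state whether 1 library came from 1 mouse, nor the antibodies and gates of the sort. Since MPPs were taken after 1 week and the stem cells after 2 weeks, population and duration cannot be told apart wherever MPPs are set against ST or LT cells.

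A nuclear receptor such as the estrogen receptor activates or silences genes through the coregulators it recruits. With an agonist bound, it takes up the p160 coactivators (Ncoa1, Ncoa2 and Ncoa3), which bring in the acetyltransferases p300 (Ep300) and CBP (Crebbp), while Med1 couples the receptor to the Mediator complex and RNA polymerase II. NCoR (Ncor1) holds a histone deacetylase at silenced genes, LSD1 (Kdm1a) removes methyl groups from histones within the CoREST complex, and RIP140 (Nrip1) binds agonist-bound receptors and recruits deacetylases and CtBP. Tamoxifen is a selective estrogen receptor modulator. Whether it acts as agonist or antagonist in a tissue is known to depend in part on the coregulators present.

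The libraries held 2728800 to 5279821 reads in listed genes, and each of the 9 genes had 169 to 2729 reads in every library. Values are normalised CPM (reads in counts-per-million form, scaled by the authors in a way not given in the sources used here). They were compared on the log2(value + 1) scale, and a gene is called at a limma adjusted p under 0.05. The 9 LT markers summed to 1751 to 2274 in LT cells, above every ST (777 to 1073) and MPP library (873 to 1525), and the 6 MPP markers to 1790.4 to 2530.0 in MPPs, above every ST (698 to 1183) and LT library (143 to 517). LT tamoxifen library A stood apart, with 25.5% of reads in mitochondrial ribosomal RNA where its replicates B and C had 17.7% and 18.7%. ST tamoxifen library A had the next highest share, 24.4%, where its replicates B and C had 21.5% and 19.3%. Some of the results that rest on either library are also given without it.

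Promoter windows are shown for Nrip1, the member that fell with tamoxifen, and for Crebbp and Ep300, which differed most between ST cells and the other populations. Each runs from 250 bases before to 50 bases after a transcription start (RefSeq, mouse build GRCm38.p6, 5′ to 3′ on the gene's strand). In the first Nrip1 window the capitals mark GGTCA, a single arm of the estrogen response element, and in the others they mark the GC box GGGCGG, of which overlapping copies run on.
Nrip1 promoter at chr16:76373778-76374077, minus strand: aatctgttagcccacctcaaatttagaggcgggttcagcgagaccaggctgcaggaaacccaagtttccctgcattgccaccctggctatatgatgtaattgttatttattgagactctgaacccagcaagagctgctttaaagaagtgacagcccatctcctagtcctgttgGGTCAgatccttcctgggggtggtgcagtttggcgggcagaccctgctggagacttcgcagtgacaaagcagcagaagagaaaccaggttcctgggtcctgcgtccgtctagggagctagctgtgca
Nrip1 promoter at chr16:76373000-76373299, minus strand: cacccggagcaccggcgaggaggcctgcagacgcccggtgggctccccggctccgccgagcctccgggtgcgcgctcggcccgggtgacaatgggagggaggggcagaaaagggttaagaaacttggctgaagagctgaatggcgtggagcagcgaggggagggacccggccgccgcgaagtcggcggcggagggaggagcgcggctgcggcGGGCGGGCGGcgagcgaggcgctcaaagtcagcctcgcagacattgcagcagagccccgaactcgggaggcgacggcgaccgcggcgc
Crebbp promoter at chr16:4213355-4213654, minus strand: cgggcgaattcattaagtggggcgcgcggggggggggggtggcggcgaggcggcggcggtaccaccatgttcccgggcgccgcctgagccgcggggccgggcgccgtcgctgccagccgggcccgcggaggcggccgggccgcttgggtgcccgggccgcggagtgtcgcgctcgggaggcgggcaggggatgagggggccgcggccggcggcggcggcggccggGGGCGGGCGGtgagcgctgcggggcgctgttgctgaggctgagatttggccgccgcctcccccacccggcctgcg
Ep300 promoter at chr15:81585964-81586263, plus strand: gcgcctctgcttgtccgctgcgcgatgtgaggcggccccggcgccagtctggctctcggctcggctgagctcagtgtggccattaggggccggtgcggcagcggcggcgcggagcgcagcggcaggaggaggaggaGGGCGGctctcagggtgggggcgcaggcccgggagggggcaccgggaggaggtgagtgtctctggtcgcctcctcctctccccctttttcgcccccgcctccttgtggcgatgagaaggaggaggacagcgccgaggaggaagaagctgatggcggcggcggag

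Of the 9 genes, 7 matched the promoter table, with 9 windows in all, and Ncoa2 and Ncoa3 had no entry. Both strands were searched. The full estrogen response element GGTCANNNTGACC, which contains GGTCA, was present in 0.07% of all 32851 windows of 300 bases and in 0 of the 7 genes. Its single arm GGTCA was present in 40.5% of all windows and in windows of 2 genes, Nrip1 and Kdm1a. The GC box GGGCGG was present in 35.7% of all windows and in windows of 6 genes, Kdm1a being the exception, and the CCAAT box in 37.4% of all windows and in those of Kdm1a and Med1. The windows of Crebbp and Ncoa1 held 49 CpG each and that of Ep300 held 30, beside a median of 7 over all windows, whereas the first Nrip1 window held 6 and 1 of the windows of Ncor1 held 2. A match is a description of the letters and not a binding site.

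With tamoxifen, Nrip1 was called lower by limma only in the effect averaged over the 3 populations. None of the other 8 coregulator genes was called. Within a single population 0 of the 9 genes were called in MPPs (limma called 0.0555% of all genes), 0 in ST cells (9.61%) and 0 in LT cells (0.416%). At an unadjusted p under 0.05 there were 0 members in MPPs (5.68% of all genes), 1 in ST cells (25.1%) and 1 in LT cells (13.5%), in both cases Nrip1. DESeq2 called 1 member, Nrip1, in LT cells and 0 in MPPs and ST cells, and edgeR called 0 in each population. With the effect averaged over the 3 populations, 1 of the 9 was called, Nrip1, as lower (8.88% of all genes were called, 3.41% as lower). The median log2 fold change of the 9 genes was -0.13 in MPPs, 0.08 in ST cells and -0.02 in LT cells, beside 0.00, 0.01 and -0.02 over all genes.

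**Figure D1:**
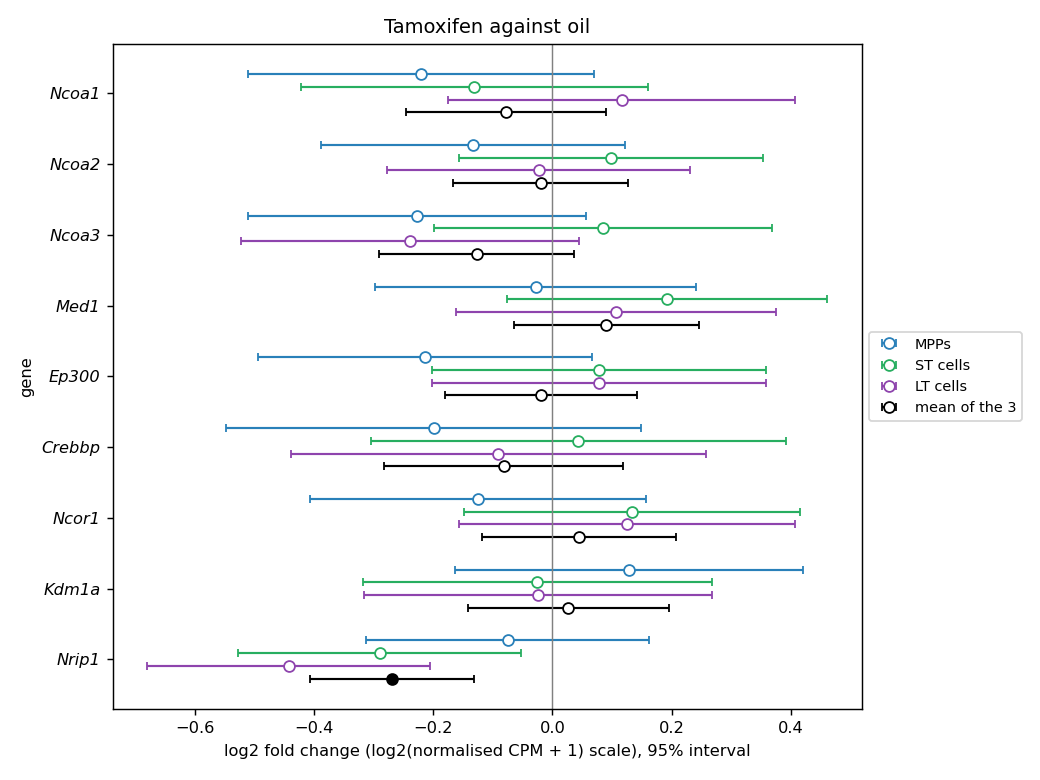
Log2 fold change of tamoxifen against oil (x axis, log2(normalised CPM + 1) scale) for each of the 9 coregulator genes (y axis), in MPPs, ST cells, LT cells and averaged over the 3 populations. Bars are 95% intervals of the limma fit and a filled point has an adjusted p under 0.05: the single filled point is the mean effect on Nrip1, at -0.27.

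Nrip1 (ENSMUSG00000048490, chromosome 16), which encodes the ligand-dependent corepressor RIP140, had its largest difference in LT cells. It stood at 236, 224 and 223 normalised CPM in LT tamoxifen libraries A, B and C, against 308, 306 and 315 in LT oil libraries. Every LT tamoxifen library, library A included, lay below every LT oil library. The log2 fold change was -0.44 (SE 0.116, limma adjusted p = 0.0805), and -0.47 without LT tamoxifen library A (adjusted p = 0.0618). It was called after quantile normalisation (0.0175), with library weights (0.0128) and with DESeq2 (0.0099), while the largest adjusted p over the alternatives was 0.315.

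Several marker lists differed in the same LT libraries. The 9 LT markers summed to 1751 to 2006 normalised CPM in LT tamoxifen libraries, against 2119 to 2274 in LT oil libraries, but their means went both ways, 5 lower and 4 higher. Of these Hlf, the one with the largest difference, averaged 698 in LT tamoxifen and 1114 in LT oil libraries, while the other 8 summed to 1131 to 1265 with tamoxifen, against 1045 to 1122 with oil. All 5 markers of stem and progenitor cells had lower means, with a sum of 1956 to 2056 in LT tamoxifen libraries, against 2461 to 2732 in LT oil libraries. All 6 MPP markers were likewise lower on average, with a sum of 143 to 269 with tamoxifen, against 289 to 517 with oil. The sums of the B cell markers (9.52 to 13.98 with tamoxifen, against 14.8 to 28.3 with oil) and of the stromal and endothelial markers (49.3 to 54.2 with tamoxifen, against 67.8 to 78.8 with oil) were lower without overlap as well. Of the 4 measured stromal and endothelial markers, 3 had lower means and 1 a higher mean. Pecam1, with the largest difference of the 4, averaged 42.5 with tamoxifen and 64.4 with oil. The other 3 overlapped, with sums of 8.42 to 8.77 with tamoxifen, against 4.87 to 9.83 with oil. The part of these markers in the Nrip1 value was not tested. In all these bulk samples fewer cells that carry a transcript and less of it per cell cannot be told apart.

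In ST cells Nrip1 stood at 184, 184 and 142 normalised CPM in tamoxifen libraries, against 191, 206 and 225 in oil libraries. All tamoxifen libraries were lower, with tamoxifen library C the lowest. The log2 fold change was -0.29 (SE 0.116, limma adjusted p = 0.111), and -0.17 without ST tamoxifen library C (adjusted p = 0.463). Without ST tamoxifen library A it was -0.35 (adjusted p = 0.077), and 0 of the 9 genes were called. After quantile normalisation it was -0.48 (adjusted p = 0.00843).

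In MPPs Nrip1 stood at 241, 234 and 236 normalised CPM in tamoxifen libraries, against 235, 249 and 266 in oil libraries. These groups overlapped, with a log2 fold change of -0.08 (95% interval -0.31 to 0.16). Averaged over the 3 populations, the log2 fold change of Nrip1 was -0.27 (SE 0.067, limma adjusted p = 0.0112). That call was kept under every alternative run, with adjusted p from 0.00089 to 0.0446 and mean changes from -0.36 to -0.23. ST and LT libraries carry the same letters, A to C. The sources used here do not state whether libraries of the same letter came from the same mice. The fit and its alternatives took them as independent, so the SE of the mean effect makes no allowance for shared mice. The same holds wherever ST cells are set against LT cells.

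The Nrip1 effect was also compared between populations. The log2 effect in LT cells minus that in MPPs was -0.37 (SE 0.164, limma adjusted p = 0.864). The effect in ST cells minus that in MPPs was -0.22 (adjusted p = 0.629), and that in ST cells minus that in LT cells was 0.15 (adjusted p = 0.738). None of these differences was called.

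Across the 6 groups the mean level of Nrip1 was lowest in ST tamoxifen (170.0 normalised CPM) and highest in LT oil libraries (309). Between them lay ST oil (207), LT tamoxifen (227), MPP tamoxifen (237) and MPP oil libraries (250.0), in a run in which each group overlapped the next. The log2 fold change of MPPs over LT cells was 0.06 with tamoxifen (95% interval -0.18 to 0.30), and -0.31 with oil (-0.55 to -0.07).

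**Figure D2:**
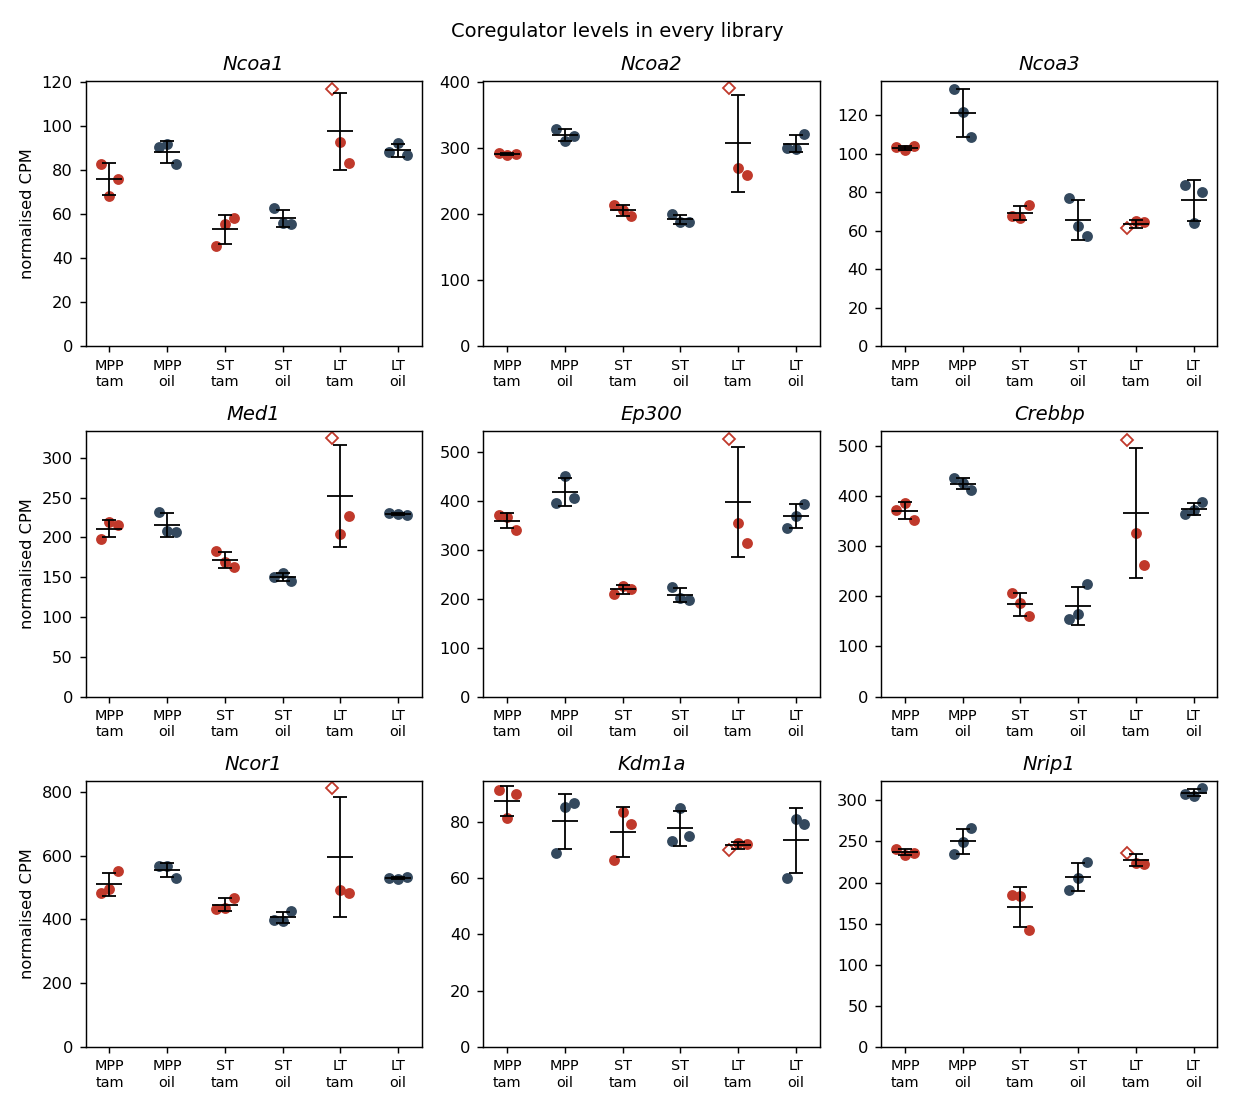
Normalised CPM (y axes) of each coregulator gene in all 18 libraries, by group (x axes, tamoxifen left of oil). Points are libraries, the open diamond is LT tamoxifen library A, and lines with bars are the mean and SD of 3 libraries: the open diamond lies above both other LT tamoxifen libraries for 7 of the 9 genes, and the LT oil libraries of Nrip1 lie above all its other libraries.

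Among the p160 coactivators, Ncoa1 (ENSMUSG00000020647, chromosome 12), which encodes SRC-1, stood at 82.9, 68.4 and 76.3 normalised CPM in MPP tamoxifen libraries, against 90.7, 91.8 and 82.8 in MPP oil libraries. These groups met only at the highest tamoxifen and the lowest oil library. In ST cells it stood at 45.8, 55.6 and 58.2 with tamoxifen, against 62.7, 56.2 and 55.6 with oil, and in LT cells at 117, 92.9 and 83.1 with tamoxifen, against 88.3, 92.5 and 86.8 with oil. Both pairs overlapped, and the mean log2 fold change over the 3 populations was -0.08 (95% interval -0.25 to 0.09). An antisense gene, 4921501I09Rik, overlaps 68 exon bases of Ncoa1, and the sources used here do not state whether reads were counted by strand.

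Ncoa2 (ENSMUSG00000005886, chromosome 1), which encodes the p160 coactivator TIF2, stood at 293, 290.0 and 292 normalised CPM in MPP tamoxifen libraries, against 329.6, 312 and 319 in MPP oil libraries. All tamoxifen libraries were lower, with a log2 fold change of -0.13 (95% interval -0.39 to 0.12, limma adjusted p = 0.974). In ST cells it stood at 214, 207 and 197 with tamoxifen, against 200.3, 188 and 189 with oil, and these overlapped. In LT cells it stood at 391.5, 270.1 and 260.2 with tamoxifen, against 301, 299 and 322 with oil, so that library A was above the oil libraries and libraries B and C below them.

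Ncoa3 (ENSMUSG00000027678, chromosome 2), which encodes the p160 coactivator SRC-3, stood at 104, 102 and 104 normalised CPM in MPP tamoxifen libraries, against 134, 122 and 109 in MPP oil libraries. All tamoxifen libraries were lower and close together, with a log2 fold change of -0.23 (95% interval -0.51 to 0.06, limma adjusted p = 0.931). In ST cells it stood at 67.9, 66.7 and 73.3 with tamoxifen, against 77.2, 62.8 and 57.3 with oil, and in LT cells at 61.4, 65.2 and 64.8 with tamoxifen, against 83.9, 63.9 and 80.1 with oil. Both pairs overlapped, in LT cells through oil library B alone (-0.24, adjusted p = 0.471). Ncoa3 shares 154 exon bases with Sulf2.

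The acetyltransferase genes were likewise lower in MPPs without being called. Crebbp (ENSMUSG00000022521, chromosome 16) stood at 372, 386 and 352 normalised CPM in MPP tamoxifen libraries, against 435, 425 and 412 in MPP oil libraries. Ep300 (ENSMUSG00000055024, chromosome 15) stood at 372, 367 and 342 in MPP tamoxifen libraries, against 397, 451 and 407 in MPP oil libraries. For both genes every tamoxifen library was below every oil library. The log2 fold change was -0.20 for Crebbp (95% interval -0.55 to 0.15) and -0.21 for Ep300 (-0.49 to 0.07), with limma adjusted p of 0.961 and 0.936. With Ncoa2 and Ncoa3 these made 4 of 9 members whose MPP groups did not overlap, all 4 lower, where 7.23% of all genes were lower without overlap.

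Other lists differed between the same MPP libraries. The 6 MPP markers, all with lower means, summed to 1790.4 to 2396 normalised CPM in MPP tamoxifen libraries, against 2478 to 2530.0 in MPP oil libraries. The markers of stem and progenitor cells summed to 1851 to 1949 with tamoxifen, against 2052 to 2057 with oil. In that list Kit averaged 644 with tamoxifen and 859 with oil, while the other 4 genes summed to 1213 to 1296 with tamoxifen, against 1147 to 1259 with oil. All 6 macrophage and monocyte markers had higher means, and their sum was 462 to 641 with tamoxifen, against 382 to 429 with oil. All 10 erythroblast and all 8 neutrophil markers also had higher means, but the sums overlapped. The erythroblast sum was 135 to 585 with tamoxifen, against 123 to 162 with oil. The neutrophil sum was 289 to 662 with tamoxifen, against 189 to 583 with oil. The median log2 fold change over all genes also sloped with exon length, from 0.07 in the shortest 20% to -0.06 in the longest 20% of genes, to which all 4 members belong. The part of these markers and of length in the members' values was not tested.

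In ST cells Crebbp stood at 206, 186 and 160.4 normalised CPM with tamoxifen, against 154, 164 and 223 with oil, and Ep300 at 209, 227 and 221 with tamoxifen, against 225, 202 and 197 with oil. Both pairs overlapped. In LT cells Crebbp stood at 510.2, 325 and 261 with tamoxifen, against 364, 371 and 388 with oil, with library A above and libraries B and C below the oil range. Its log2 fold change was -0.09, and -0.36 without library A (limma adjusted p = 0.232). Ep300 stood at 527, 356 and 314 in LT tamoxifen libraries, against 344, 369 and 394 in LT oil libraries. Its log2 fold change was 0.08, and -0.14 without library A (adjusted p = 0.689). Ep300 shares 54 exon bases with Gm23880.

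Med1 (ENSMUSG00000018160, chromosome 11), the Mediator subunit that nuclear receptors bind, stood at 182, 169 and 163 normalised CPM in ST tamoxifen libraries, against 150.3, 155 and 145 in ST oil libraries. All tamoxifen libraries were higher, with a log2 fold change of 0.19 (95% interval -0.08 to 0.46, limma adjusted p = 0.38). In MPPs it stood at 198, 219 and 215 with tamoxifen, against 232, 208 and 206 with oil, and these overlapped. In LT cells it stood at 324, 205 and 226 with tamoxifen, against 230.2, 229 and 228 with oil, with library A above and libraries B and C below the narrow oil range.

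Ncor1 (ENSMUSG00000018501, chromosome 11), the corepressor that carries HDAC3, stood at 431, 437 and 468 normalised CPM in ST tamoxifen libraries, against 396, 395 and 426 in ST oil libraries. Here too all tamoxifen libraries were higher (log2 fold change 0.13, 95% interval -0.15 to 0.42, limma adjusted p = 0.586). Med1 and Ncor1 were the 2 of 9 members higher without overlap in ST cells, where 14.8% of all genes were, and Nrip1 the 1 lower (12.2%). In MPPs Ncor1 stood at 481, 496 and 551 with tamoxifen, against 568, 566 and 530.0 with oil, an overlap. In LT cells it stood at 812, 493 and 482 with tamoxifen, against 529.9, 526 and 533 with oil, again with library A above and the others below the oil range. Ncor1 shares 82 exon bases with Pigl and 1 with Ttc19.

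Kdm1a (ENSMUSG00000036940, chromosome 4), the demethylase of the CoREST complex, stood at 91.3, 81.5 and 90.0 normalised CPM in MPP tamoxifen libraries, against 69.1, 85.2 and 86.7 in MPP oil libraries. In ST cells it stood at 66.5, 83.6 and 79.5 with tamoxifen, against 73.2, 85.0 and 74.9 with oil, and in LT cells at 70.0, 72.6 and 72.3 with tamoxifen, against 60.1, 81.2 and 79.2 with oil. The groups overlapped in each population, and the mean log2 fold change was 0.03 (95% interval -0.14 to 0.20). In LT cells Nrip1 was thus the 1 member without overlap between treatments, where 9.36% of all genes were lower without overlap.

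LT tamoxifen library A was the highest of its group for 7 members. Its ratio to the mean of libraries B and C, taken on normalised CPM, was 1.74 for Crebbp, 1.67 for Ncor1, 1.57 for Ep300, 1.51 for Med1, 1.48 for Ncoa2 and 1.33 for Ncoa1. It was 1.06 for Nrip1, 0.967 for Kdm1a and 0.945 for Ncoa3. Long genes as a whole stood higher in that library, with a median log2 difference of 0.19 among the longest 20% of genes by exon length and -0.21 in the shortest, beside -0.01 over all genes. The part of length and of mitochondrial ribosomal RNA in the members' values was not tested. Without that library 0 of the 9 genes were called between tamoxifen and oil in LT cells.

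The tamoxifen effects were compared between populations for all members. None of the 9 was called in the difference between ST and LT cells (0.0555% of all genes), between ST cells and MPPs (0.00694%), or between LT cells and MPPs (0% of all genes, with 808, or 5.6%, at an unadjusted p under 0.05 and 14 called by DESeq2). The 95% intervals of the members' differences ran from -0.66 to 0.72 for ST against LT cells, from -0.57 to 0.74 for ST cells against MPPs and from -0.70 to 0.75 for LT cells against MPPs, on the log2 scale. Without LT tamoxifen library A, the calls over all genes were 122 instead of 8 for ST against LT cells and 164 instead of 1 for ST cells against MPPs, with 0 members among them. Without ST tamoxifen library A they were 19 and 4.

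Between populations the coregulator genes differed more. With oil, 7 of the 9 genes were lower in ST cells than in LT cells (limma called 28.5% of all genes, 16% as lower), with a median log2 fold change of -0.61 beside 0.01 over all genes. In MPPs 7 of the 9 were higher than in ST cells (30.7% of all genes, 16.8% as higher), with a median of 0.60 beside -0.05. MPPs and LT cells differed in 1 of the 9, Ncoa3 (14.8% of all genes, 7.76% as higher). Crebbp and Ep300, the paired acetyltransferase genes, had the largest fold changes of the 9 between ST cells and either other population. Kdm1a was called in none of these comparisons.

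**Figure D3:**
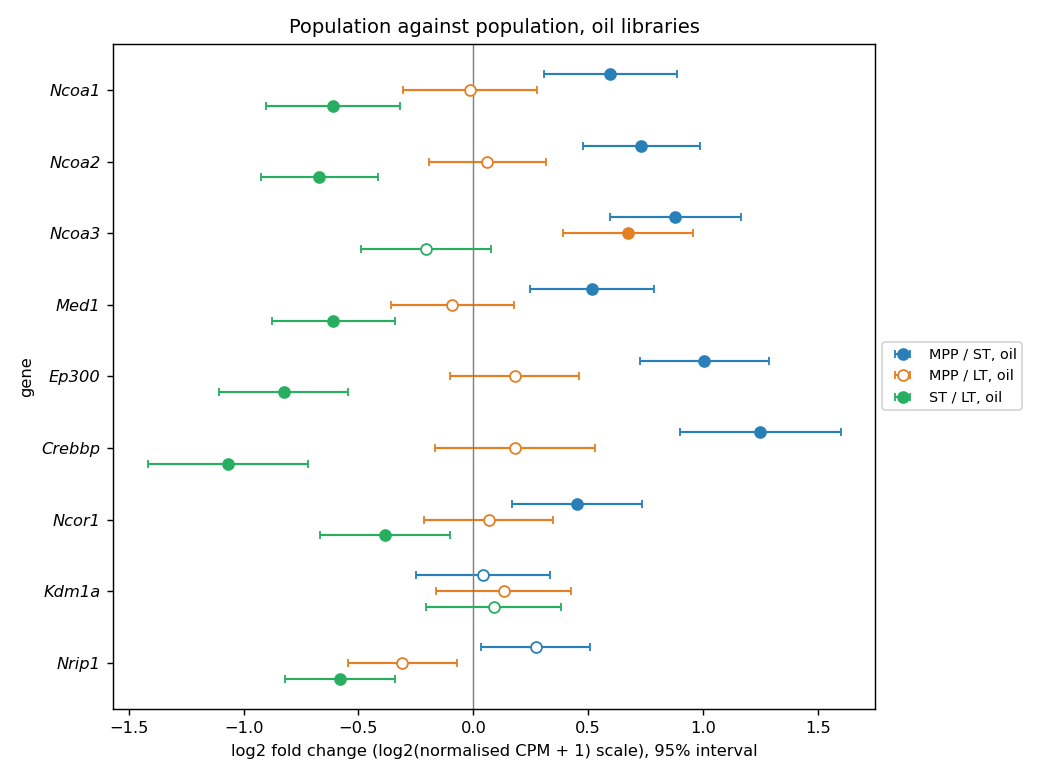
Log2 fold change between populations in the oil libraries (x axis, log2(normalised CPM + 1) scale) for each coregulator gene (y axis), for MPPs against ST cells, MPPs against LT cells and ST against LT cells. Bars are 95% intervals and filled points have a limma adjusted p under 0.05: 7 genes are filled and below 0 for ST against LT cells, 7 are filled and above 0 for MPPs against ST cells, and Ncoa3 alone is filled for MPPs against LT cells.

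Crebbp averaged 180.2 ± 37.6 normalised CPM in ST oil and 374 ± 12.1 in LT oil libraries (SD, n = 3 each). Every ST library lay below every LT library, and the log2 fold change was -1.07 (SE 0.169, limma adjusted p = 4.08e-05). Ep300 averaged 208 ± 14.6 in ST oil and 369 ± 24.8 in LT oil libraries, again without overlap (-0.82, SE 0.137, adjusted p = 4.97e-05). Both calls were kept under every alternative run, with changes from -1.23 to -0.76 for Crebbp and from -0.88 to -0.51 for Ep300.

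The p160 genes and Med1 differed less. Ncoa2 averaged 192 ± 6.80 normalised CPM in ST oil and 307 ± 12.6 in LT oil libraries (log2 fold change -0.67, limma adjusted p = 0.000188). Ncoa1 averaged 58.1 ± 3.96 in ST oil and 89.2 ± 2.96 in LT oil libraries (-0.61, 0.00181). Med1 averaged 149.9 ± 4.82 in ST oil and 229 ± 1.28 in LT oil libraries (-0.61, 0.000887). The groups of these 3 genes did not overlap, and their calls were kept under every alternative run. Ncoa3 averaged 65.8 ± 10.3 in ST oil and 76.0 ± 10.6 in LT oil libraries, with an overlap and no call (-0.21, 95% interval -0.49 to 0.08).

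The corepressor genes were also lower in ST cells. Nrip1 averaged 207 ± 17.01 normalised CPM in ST oil and 309 ± 4.62 in LT oil libraries (log2 fold change -0.58, limma adjusted p = 0.000414). Ncor1 averaged 406 ± 17.3 in ST oil and 529.8 ± 3.57 in LT oil libraries (-0.38, SE 0.138, adjusted p = 0.0364). Neither pair overlapped, and 7 of the 9 members were lower without overlap, where 22.7% of all genes were. The Ncor1 call was lost with edgeR (0.0543) and DESeq2 (0.0521), without moderation by trend (0.101), when ST oil library A (0.0892) or B (0.099) was left out, and when any single LT oil library was, namely A (0.0864), B (0.0813) and C (0.0898). Kdm1a averaged 77.7 ± 6.36 in ST oil and 73.5 ± 11.6 in LT oil libraries (0.09, 95% interval -0.20 to 0.38).

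MPPs against ST cells share the ST oil libraries with the comparison above. Crebbp averaged 424 ± 11.5 normalised CPM in MPP oil and 180.2 ± 37.6 in ST oil libraries (log2 fold change 1.25, limma adjusted p = 5.96e-06). Ep300 averaged 418 ± 28.7 in MPP oil and 208 ± 14.6 in ST oil libraries (1.01, 3.83e-06), and Ncoa3 121 ± 12.5 in MPP oil and 65.8 ± 10.3 in ST oil libraries (0.88, 2.47e-05). Ncoa2 (0.73), Ncoa1 (0.60), Med1 (0.52) and Ncor1 (0.45) were called as well. The Med1 call was lost after quantile normalisation (0.22, adjusted p = 0.17) and that of Ncor1 without moderation by trend (0.0539). Nrip1 averaged 250.0 ± 15.7 in MPP oil and 207 ± 17.01 in ST oil libraries without overlap, and was not called (0.27, adjusted p = 0.0767, but 0.0413 without LT tamoxifen library A in the shared fit). In all 8 members were higher without overlap, where 22.5% of all genes were.

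Ncoa3 was the only one of the 9 genes called between MPPs and LT cells. It averaged 121 ± 12.5 normalised CPM in MPP oil and 76.0 ± 10.6 in LT oil libraries, with every MPP library higher (log2 fold change 0.67, SE 0.138, limma adjusted p = 0.00082). The call was kept under every alternative run, with changes from 0.56 to 0.75. Crebbp (0.18, 95% interval -0.17 to 0.53) and Ep300 (0.18, -0.10 to 0.46) were higher in every MPP library without being called, so that 3 members were higher without overlap (18.3% of all genes). Nrip1 was lower in every MPP library, as were 19.1% of all genes. Its change (-0.31, adjusted p = 0.0757) was called under 6 alternatives, with the smallest adjusted p, 0.00193, after quantile normalisation.

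The same comparisons with tamoxifen were added after the values had been seen. In ST cells 7 of the 9 genes were lower than in LT cells (23.5% of all genes called, 11.1% as lower). In MPPs 6 were higher than in ST cells (19.6%, 9.84% as higher) and 1, Ncoa3, was higher than in LT cells (17.7%, 9.36% as higher). Crebbp averaged 184 ± 22.9 normalised CPM in ST tamoxifen and 365 ± 129 in LT tamoxifen libraries (log2 fold change -0.93, limma adjusted p = 0.000294), and Ncoa1 53.2 ± 6.50 in ST tamoxifen and 97.7 ± 17.5 in LT tamoxifen libraries (-0.86, 8.65e-05). Both changes include LT tamoxifen library A, which enlarged them. It stood above the mean of libraries B and C by 0.81 for Crebbp and 0.41 for Ncoa1 on the log2 scale. With only the compared groups in the fit, 3 genes were called between ST and LT cells, and without LT tamoxifen library A 6, Ncor1 being the one lost (-0.13, adjusted p = 0.383). The Ncor1 call was also lost without ST tamoxifen library A (0.108), B (0.112) or C (0.0718), and that of Nrip1 without ST tamoxifen library C (0.0844). Between MPPs and ST cells the Ncoa1 call was lost without MPP tamoxifen library 1 (0.0623) or ST tamoxifen library A (0.0703).

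Exon length moved with the population differences over the whole table. Of the 9 genes, 8 belonged to the longest 20% of genes (7359 bases or more), from Ncoa3 with 7895 to Ncoa2 with 15642 exon bases, and Kdm1a, with 5179, to the next shorter group of genes. For ST against LT cells with oil, the median log2 fold change from the shortest to the longest of 5 equal classes of genes was 0.39, 0.12, -0.03, -0.15 and -0.27. For MPPs against ST cells it was -0.46, -0.17, -0.01, 0.14 and 0.29. In the longest class 34.6% of genes were called lower in ST than in LT cells, and 36.8% higher in MPPs than in ST cells. For MPPs against LT cells the medians lay between -0.05 and 0.02, and for tamoxifen against oil in LT cells between -0.03 and 0.00. For tamoxifen against oil in MPPs they were 0.07, 0.06, 0.00, -0.02 and -0.06 from the shortest to the longest class, and in ST cells -0.15 in the shortest class and between 0.03 and 0.07 in the others.

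**Figure D4:**
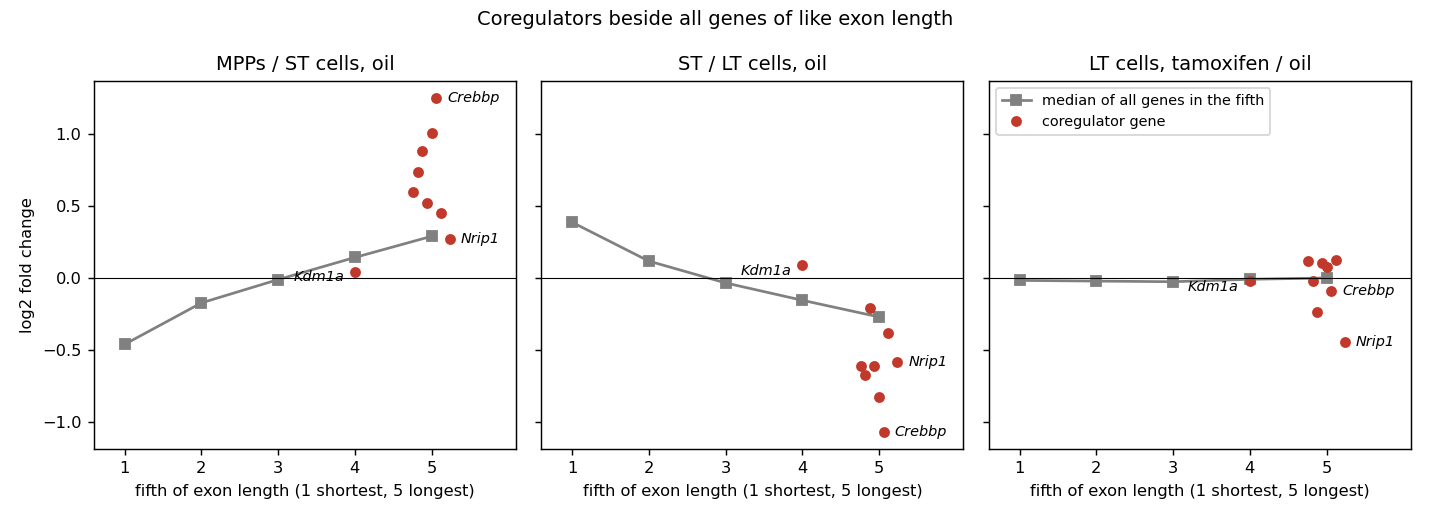
Log2 fold change (y axis) of the 9 coregulator genes (points) and the median of all genes (grey squares) in classes of exon length that each hold 20% of genes (x axis), for MPPs against ST cells and ST against LT cells with oil, and for tamoxifen against oil in LT cells. In the first 2 panels the medians slope with length and Crebbp lies farthest beyond them, and in the last panel the medians are flat and Nrip1 lies lowest.

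Against that slope the members were spread. For ST against LT cells the log2 fold changes of Crebbp (-1.07), Ep300 (-0.82) and Ncoa2 (-0.67) lay below the median of the longest genes, -0.27, whereas that of Ncoa3 (-0.21) lay above it. After the trend with length had been taken out of each library, a step added after the values were seen, 6 of the 9 were called lower in ST than in LT cells, from -0.76 for Crebbp (limma adjusted p = 0.000202) to -0.29 for Nrip1 (0.0488). Ncor1 was not (-0.08, adjusted p = 0.633). For MPPs against ST cells 4 were then called, namely Crebbp (0.93), Ep300 (0.68), Ncoa3 (0.65) and Ncoa2 (0.39), and those of Ncoa1 (0.0547), Med1 (0.0942) and Ncor1 (0.392) were lost. What lies behind the slope was not tested.

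Levels were also taken per kilobase of exon, over all annotated exons of a gene, whichever of its transcripts were present. Ranks between genes are therefore approximate, and the part of the slope with exon length in them was not tested. Ncor1 was highest of the 9 in MPP oil (43.3 normalised CPM per kilobase), ST oil (31.7) and LT oil libraries (41.4). In LT oil libraries it was followed by Crebbp (27.6), Nrip1 (27.01), Med1 (26.2), Ep300 (25.9), Ncoa2 (19.6), Kdm1a (14.2), Ncoa1 (10.4) and Ncoa3 (9.62). In ST oil libraries Crebbp (13.3) stood below Nrip1 (18.1), Med1 (17.1), Kdm1a (15.005) and Ep300 (14.6). In MPP oil libraries Crebbp (31.3) and Ep300 (29.3) came next after Ncor1. Of the p160 genes Ncoa2 had the highest level per kilobase in these 3 groups.

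Over the 18 libraries, which carry the group differences above, most members varied together, as Pearson's r on the log2 scale describes. It was 0.98 between Ncoa2 and Ep300, 0.963 between Ncoa2 and Crebbp, 0.948 between Ep300 and Crebbp and 0.911 between Med1 and Ncor1. Over the 17 libraries without LT tamoxifen library A these were 0.976, 0.962, 0.943 and 0.864. Kdm1a varied with none of the others (r from -0.214 to 0.282). The highest values for Ncoa3 were 0.515 with Crebbp, 0.505 with Ep300 and 0.495 with Ncoa2. Without LT tamoxifen library A these were 0.666, 0.697 and 0.697, and that with Ncor1 was 0.679 instead of 0.265. The highest value for Nrip1 was 0.754 with Crebbp, and 0.792 without that library.

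The genes most like each member over the same 18 libraries were taken from those above the median level. For Ncoa2 they were Wnk1 (r = 0.971), Mga and Birc6, for Ep300 Wnk1 (0.967), Birc6 and Traf6, and for Crebbp Polr2a (0.97), which encodes the largest subunit of RNA polymerase II, Wnk1 and Mycbp2. Ncoa1 was most like Nf1 (0.953), Dmxl1 and Eif2c2, Med1 most like Jmy (0.955), Zc3h13 and Srrm2, and Ncor1 most like Mll5 (0.951), Rock2 and Prrc2c. Ncoa3 was most like Wdfy4 (0.957), Cdk19, which encodes a kinase of the Mediator complex, and Prkd3. Nrip1 was most like Hlf (0.894), which encodes a transcription factor of stem cells, Gatsl2 and Wdr81. These values share libraries, depth, group differences and the slope with exon length given above. The part of length in the correlations was not tested.

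Partners of the coregulators were read from 9 lists chosen by function. Of 22 measured partners of Nrip1 and related corepressors, 2 rose (Mta1 and Trim28) and 3 fell (Trim24, Lcor and Lcorl) with tamoxifen in ST cells, where 6.01% of all genes were called higher and 3.6% lower. Trim24, a receptor-binding coregulator, stood at 99.5, 94.1 and 85.4 normalised CPM in ST tamoxifen libraries, against 178, 140.3 and 152 in ST oil libraries (log2 fold change -0.74, limma adjusted p = 0.0012). Lcor, a ligand-dependent corepressor, stood at 57.8, 47.9 and 49.9 with tamoxifen, against 93.3, 75.7 and 77.0 with oil (-0.65, 0.00575), and its relative Lcorl at 34.9, 24.4 and 27.9 with tamoxifen, against 52.2, 65.4 and 40.9 with oil (-0.83, 0.0138). None of these groups overlapped. The Lcorl call was lost without ST oil library B (0.0827) or ST tamoxifen library B (0.0709) or C (0.0523).

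Of the complexes around NCoR and LSD1, 1 of 5 genes of the NCoR list and 1 of 13 of the CoREST list rose in ST cells, and 0 fell, where 6.01% of all genes were called higher. Tbl1x, a subunit of the NCoR complex, stood at 190.4, 235 and 240.2 normalised CPM in ST tamoxifen libraries, against 145, 154 and 187 in ST oil libraries (log2 fold change 0.45, limma adjusted p = 0.0419). That call was lost with edgeR (0.0731) and DESeq2 (0.0518), without ST oil library A (0.173) or B (0.12) and without ST tamoxifen library B (0.139) or C (0.164). Of 12 alternatives that left out no library, 7 kept it. Rcor1, the CoREST scaffold, stood at 105, 112 and 114 with tamoxifen, against 76.2, 60.8 and 82.5 with oil (0.59, adjusted p = 0.0113, 0.0727 without ST oil library B). All tamoxifen libraries of both genes were higher than their oil libraries.

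Of 18 subunits of the SWI/SNF chromatin remodeller, Smarca4 (0.44, limma adjusted p = 0.0257) and Actl6a (0.60, 0.0408) rose in ST cells and 0 fell, beside the 6.01% of all genes called higher. The Smarca4 call was lost without ST tamoxifen library A (0.139) or B (0.0564) and without ST oil library A (0.0694), B (0.0528) or C (0.0634). The Actl6a call was lost without ST tamoxifen library A (0.121), B (0.0682) or C (0.0895) and without ST oil library B (0.0859) or C (0.139). Of 12 alternatives that left out no library, 9 kept the Smarca4 call and 7 that of Actl6a. Of 32 other Mediator subunits, 7 other NCOA and PGC1 coactivators and 9 genes of the MLL3/MLL4 complex, 0 were called in ST cells. The same held for 13 acetyltransferases, arginine methyltransferases and associated genes. The medians of these lists ran from -0.06 to 0.11 beside 0.01 over all genes. The 8 neutrophil markers summed to 461 to 613 normalised CPM in ST tamoxifen and 246 to 504 in ST oil libraries, and 4 of them had higher and 4 lower means. Elane, which had the largest difference of the 8, averaged 370.5 with tamoxifen and 173 with oil, and the other 7 summed to 90.7 to 197 with tamoxifen, against 104 to 279.8 with oil. The 10 erythroblast markers summed to 165 to 183 in ST tamoxifen libraries, against 121 to 139 in ST oil libraries, without overlap. Of their means 6 were higher and 4 lower. Tfrc, which had the largest difference of the 10, averaged 117 with tamoxifen and 78.1 with oil. The other 9 overlapped, with sums of 46.9 to 78.0 with tamoxifen, against 40.0 to 54.8 with oil. The part of these markers in the ST values was not tested.

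Of the receptors, 30 of 46 listed nuclear receptor genes were measured. In ST cells 1 of the 30 was called, as lower, where 3.6% of all genes were called lower. This was Esr1, which encodes estrogen receptor alpha. It stood at 24.6, 21.0 and 7.58 normalised CPM in ST tamoxifen libraries, against 31.4, 31.6 and 47.1 in ST oil libraries (log2 fold change -1.13, limma adjusted p = 0.0149). Every tamoxifen library was lower. Leaving out ST tamoxifen library C (-0.64, adjusted p = 0.0743) or ST oil library C (-0.95, 0.0566) ended the call. Of 12 alternatives that left out no library, 11 kept it. In LT cells Esr1 stood at 20.4, 28.7 and 19.7 with tamoxifen, against 39.1, 38.4 and 43.9 with oil (-0.81, adjusted p = 0.186), and in MPPs at 49.8, 62.3 and 64.0 with tamoxifen, against 80.9, 87.5 and 66.9 with oil (-0.41, 0.936). Averaged over the 3 populations Esr1 was called as lower (-0.79, 0.00464).

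Greb1, a known target of the estrogen receptor, was higher in every tamoxifen library than in any oil library of its population. It had 14, 27 and 23 reads in MPP tamoxifen libraries, against 0, 2 and 2 in MPP oil libraries (limma adjusted p = 0.0305), and 14, 8 and 18 in ST tamoxifen libraries, against 0, 0 and 0 in ST oil libraries (0.00105). In LT cells it had 4, 6 and 2 reads with tamoxifen, against 0, 0 and 0 with oil, and was not called (0.179). The MPP call was lost with edgeR (0.137) and with a pseudocount of 0.1 (0.073), without MPP oil library 1 (0.162) or 2 (0.111) and without MPP tamoxifen library 2 (0.159) or 3 (0.103).

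In LT cells 1 gene of the 9 lists, which held 5 to 32 measured genes each, was called, where 0.416% of all genes were. Gfi1, a repressor that recruits LSD1 and CoREST, stood at 4.61, 8.42 and 2.56 normalised CPM in LT tamoxifen libraries, against 10.7, 10.1 and 15.5 in LT oil libraries (log2 fold change -1.17, limma adjusted p = 0.0472). The groups did not overlap, yet leaving out LT tamoxifen library A (0.0681) or C (0.135), or any of the LT oil libraries A (0.123), B (0.0867) and C (0.309), ended the call. Of 11 alternatives that left out no library, 6 kept the Gfi1 call. In MPPs 0 genes of the lists were called, where 0.0555% of all genes were. All 7 of the other NCOA and PGC1 coactivators and all 5 genes of the NCoR list had MPP values below 0 on the log2 scale (list medians -0.14 and -0.13), beside a median of 0.00 over all genes and -0.06 in the longest 20% of genes. The MPP and stem cell marker sums were lower in the same libraries, as given above, and the part of these in the list values was not tested.

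Between populations many partners were called. With oil, Tbl1x, which encodes a subunit of the NCoR complex, averaged 162 ± 22.4 normalised CPM in ST and 285 ± 12.7 in LT libraries (log2 fold change -0.82, limma adjusted p = 9.03e-05), and its relative Tbl1xr1 was also lower in ST than in LT cells (-0.59, 0.000858). Of 13 genes of the CoREST list Rcor1, Phf21a, Gse1 and Gfi1b were lower and 0 higher, where 16% of all genes were called lower and 12.5% higher. Of 9 genes of the MLL3/MLL4 complex Mll3, Mll2, Kdm6a and Rbbp5 were lower and Dpy30 higher, and of 18 SWI/SNF subunits 6 were lower and 0 higher.

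The other Mediator subunits were called in both directions. Of 32, 6 were higher in ST than in LT cells (Med6, Med11, Med21, Med28, Med30 and Med31) and 6 lower (Med12, Med12l, Med13, Med13l, Med14 and Med15), with a list median of 0.09, where 12.5% of all genes were called higher and 16% lower. Of 30 nuclear receptor genes 10 were lower in ST than in LT cells and 0 higher, among them those of the receptors for progesterone (Pgr), glucocorticoids (Nr3c1) and vitamin D (Vdr), with a list median of -0.47, where 16% of all genes were called lower. Esr1 was not among them (-0.16, limma adjusted p = 0.723). In MPPs against ST cells Esr1 was higher (1.09, 0.00566), as were Tbl1x and Tbl1xr1. The slope with exon length runs through these lists as well, and its part was not tested.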

How the data were processed

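RNA of sorted cells was extracted with the Picopure kit, amplified with Ovation RNA-Seq System V2 and sequenced, per the labels' protocols. The submitters' processing notes name cutadapt, RSEM 1.17, Picard, limma and the build NCBIM37. The deposited values are a normalised signal in CPM form, scaled by the authors in a way not given in the sources used here. Their steps give whole reads for 100% of values (within 0.001 of a whole read), and these counts were tested as an alternative. The values were tested as log2(value + 1) with limma 3.58.1 (R 4.3.3, trend and robust moderation, 18 libraries and 6 groups in 1 fit, 12 residual degrees of freedom), with Benjamini-Hochberg adjustment over all 14419 genes. A filter of 1 in at least 3 libraries removed none. Alternatives used edgeR 4.0.16 and DESeq2 1.42.0. The procedure was also tested on simulated data. The pseudocount and filter bear most on low genes, while the unknown scaling bears on every comparison between libraries.

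The 9 genes and the lists were chosen with earlier results of these data known. Named genes were the 9, Esr1, Greb1, up to 3 called genes per list and tamoxifen comparison by smallest adjusted p, and the 3 genes most correlated with each member. Some of these genes are not reported here. Other list members were named after their values were seen. Exon lengths came from GENCODE M21, for 13693 genes. P-values of the main fit set a group difference against the spread between libraries. That spread was estimated over all 18 libraries, LT tamoxifen library A included. Depth was 2728800 to 5279821 reads.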

Additional observations from a re-analysis of the deposited data

How the results depend on the processing

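The alternatives changed the pseudocount, the filter on low values, the scaling, the moderation, the libraries in the fit, library weights, the replicate block and the test, and left out each library in turn. Of the members called per comparison, tamoxifen against oil gave 1 instead of 0 in ST cells after quantile normalisation, and 1, 1 and 1 instead of 0 in LT cells after quantile normalisation, with library weights and with DESeq2. Leaving out single libraries gave 0 in each population and 1 for the mean effect. MPPs against LT cells with oil gave 2 instead of 1 with quantile normalisation, the compared groups alone, library weights, the length trend removed and DESeq2, and 1 to 2 without single libraries (2 without LT tamoxifen library A). MPPs against ST cells with oil gave 4 instead of 7 with the length trend removed and 7 to 8 without single libraries, and ST against LT cells with oil 6 to 7. With tamoxifen, ST against LT cells gave 3 instead of 7 with the compared groups alone, 4 with the length trend removed and 5 to 7 without single libraries. MPPs against ST cells gave 3 instead of 6 with the length trend removed and 5 to 7 without single libraries, and MPPs against LT cells 1 to 2 (2 without LT tamoxifen library C). No called value changed sign.

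Deviations of same-numbered libraries within a population correlated weakly (from -0.10 to 0.24), and the main fit did not take the numbers as pairs. In MPPs the same-numbered pairs were all above 0 (0.13, 0.07 and 0.24), where differently numbered libraries ran from -0.24 to 0.13. Pairs of an ST with an LT library were not examined. With the replicate block 0 members were called in each population and Nrip1 for the mean effect (adjusted p = 0.0267). Over all genes the 8 calls for the difference between ST and LT effects became 34 with the block, 0 without trend, 2 with the compared groups alone, 99 with weights, 157 with DESeq2, 0 with edgeR, and 0 to 122 without single libraries (the highest without LT tamoxifen library A). The 1 call between ST cells and MPPs became 0, 0, 36, 155, 128 and 0 in that order, 9 after quantile normalisation, 6 with the length trend removed, and 0 to 164 without single libraries (the highest again without that library). The 0 between LT cells and MPPs became 9 with the block, 3 with a pseudocount of 0.1, 2 with the compared groups alone, 2 with weights and 14 with DESeq2, and 0 to 5 without single libraries. Counts over all genes for tamoxifen in ST cells ran from 654 to 2121 around 1386 without single libraries, with 52.2% higher after quantile normalisation beside 62.6%. In LT cells 60 became 98 (quantile), 22 (no trend), 3 (compared groups alone), 235 (weights) and 336 (DESeq2), and 9 to 330 without single libraries, with 69.6% higher by DESeq2 and 44.8% by edgeR beside 33.3%. In MPPs 8 became 2, 19, 67 and 28 under no trend, compared groups alone, weights and DESeq2, and 0 to 40 without single libraries. For the mean effect 1280 became 810 without trend, 1922 with weights and 789 to 1717 without single libraries, with 48.6% higher after quantile normalisation beside 61.6%. MPPs against LT cells with oil gave 3445 with the compared groups alone and 3568 with weights beside 2130. With tamoxifen, ST against LT cells gave 1780 with the compared groups alone beside 3391. With 3 libraries a group, effects within the printed intervals could not be told from 0.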
